A study of Trichoderma reesei with 17 samples.

Results

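The question here was whether Trichoderma reesei, a filamentous fungus grown industrially for its cellulases, changed its transcripts between sophorose and glucose differently when the regulator gene xyr1 was deleted (Δxyr1) than in the parental strain QM9414. The quantity measured was the interaction of strain and carbon source, (Δxyr1 sophorose − QM9414 sophorose) − (Δxyr1 glucose − QM9414 glucose), on log2 counts. Its libraries were chosen by strain and carbon source alone and made up 11 of the 17 RNA-seq libraries of the series. The groups were Δxyr1 in 1 mM sophorose (3 libraries), QM9414 in 1 mM sophorose (3 libraries), Δxyr1 in 2% glucose (3 libraries) and QM9414 in 2% glucose (2 libraries, since its replicate 2 was not analysed here). The study itself removed that library, which it regarded as not informative. Whether its removal lowers the spread of the group was not tested. Mycelia were grown in Mandels-Andreotti medium at 28 °C and 200 rpm, and each library held RNA combined from 2, 4 and 6 h of culture in sophorose or from 24 and 48 h in glucose. The times matched between strains, but sophorose and glucose differed in culture time as well as in sugar, and these cannot be told apart within a strain. The labels give the Δxyr1 sophorose cultures a 24 h pre-culture in glycerol and describe none for QM9414 sophorose, while the methods of the study place that step before cellulose cultures. If the labels hold, pre-culture and strain cannot be told apart in sophorose.

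XYR1 is a zinc cluster transcription factor that binds the promoters of cellulase and xylanase genes and activates them. Sophorose, a disaccharide of glucose, is a strong inducer of cellulases in this fungus, whereas glucose represses them. Cellobiohydrolases and endoglucanases cut cellulose, xylanases and side-chain enzymes open the hemicellulose around it, and β-glucosidases and sugar permeases turn the released oligosaccharides into glucose and bring sugars into the cell.

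Total counts ranged between 9852765 and 29056712 in the 11 libraries, and levels are given as CPM, read counts scaled to a common library size after TMM normalization. A gene was called when edgeR's quasi-likelihood test gave a Benjamini-Hochberg adjusted p of at most 0.05 over all 8506 genes tested and the log2 value was at least 1 in size. "Rose" and "fell" mark such calls for sophorose against glucose within a strain. A negative interaction means a smaller rise, or a larger fall, in Δxyr1 than in QM9414. The p-values measure the spread between libraries within groups, which the study describes as biological replicates. That spread was estimated over all 17 libraries of the series, cellulose cultures included. Reads of overlapping or antisense genes cannot be told apart, because strand-specific counting is not given in the sources used here.

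Several Δxyr1 libraries stood apart from the rest. The gene ID 48266, annotated only as a unique protein, took 35% of the counts of Δxyr1 sophorose 3 (95% Wilson interval 34.96 to 34.99), 24.9% of Δxyr1 glucose 1 (24.85 to 24.88), 18.4% of Δxyr1 glucose 2 (18.41 to 18.45) and 8.15% of Δxyr1 glucose 3 (8.139 to 8.165). In the other libraries it took between 1.64% and 5.32%. The intervals cover counting error only. Induced cellulase transcripts also appeared at a low level where they were not induced. The cellobiohydrolase gene cbh1 reached 30.8, 57.9 and 0.72 CPM in Δxyr1 sophorose, and 0.320, 23.9 and 31.3 CPM in Δxyr1 glucose, against 28.7 and 16.5 CPM in QM9414 glucose, so the deepest libraries of the Δxyr1 groups, sophorose 3 and glucose 1, were the lowest. The ratio of cbh1 to cbh2 lay between 2.04 and 2.82 in every library with cbh2 counts, the 3 QM9414 sophorose libraries included. The source of these low counts was not tested, and they set the fold changes of the most induced genes.

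The deleted gene checked the labels. Its transcript, xyr1 (ID 122208), was counted at 83.6, 81.5 and 93.7 CPM in Δxyr1 sophorose, against 2252, 2883 and 2545 CPM in QM9414 sophorose. In glucose it was counted at 1.01, 4.46 and 5.68 CPM in Δxyr1 glucose, against 9.21 and 10.0 CPM in QM9414 glucose. Every Δxyr1 library lay below every QM9414 library of the same sugar. Counts were still assigned to the gene in Δxyr1, higher in sophorose than in glucose, and the part of the gene they covered was not analysed here. The study reported that xyr1 lacked coverage in the mutant under every condition, unlike these counts. The source of this difference was not tested. The log2 response to sophorose was 4.57 in Δxyr1 and 8.05 in QM9414, with an interaction of −3.49 (SE 0.594, adjusted p = 0.00136).

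The response to sophorose differed between the strains for 1024 of 8506 genes, 12% of those tested: 558 were higher (6.56%) and 466 lower (5.48%) in Δxyr1 than the QM9414 response would give. By adjusted p alone, without the fold threshold, 1560 genes passed. The count was 1391 without Δxyr1 sophorose 3 and 936 without Δxyr1 glucose 1, the libraries that stood apart, 695 without QM9414 glucose 1, 729 without Δxyr1 sophorose 2 and 449 with library totals alone. The balance of directions also turned under some alternatives, with 419 higher and 517 lower calls without Δxyr1 glucose 1 and 523 higher and 560 lower under DESeq2. Of the 1024 called genes, 919 had Δxyr1 and QM9414 libraries that did not overlap in sophorose, as did 57.8% of all genes tested. In glucose the share of all genes was 34%. The calls use these same libraries, so the separation of called genes is not independent evidence. Within Δxyr1, 36% of the genes responded to sophorose, 1651 of which rose (19.4% of all) and 1413 fell (16.6%). Within QM9414, 38.8% responded, 1666 of which rose (19.6%) and 1635 fell (19.2%). These responses share no library. Of the genes that rose in QM9414, 1232 also rose in Δxyr1, which is 74.6% of the genes that rose in Δxyr1 and 73.9% of those in QM9414. For 1068 genes that rose in both strains the interaction was not called, and their median responses were 2.49 in Δxyr1 and 2.47 in QM9414.

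**Figure D1:**
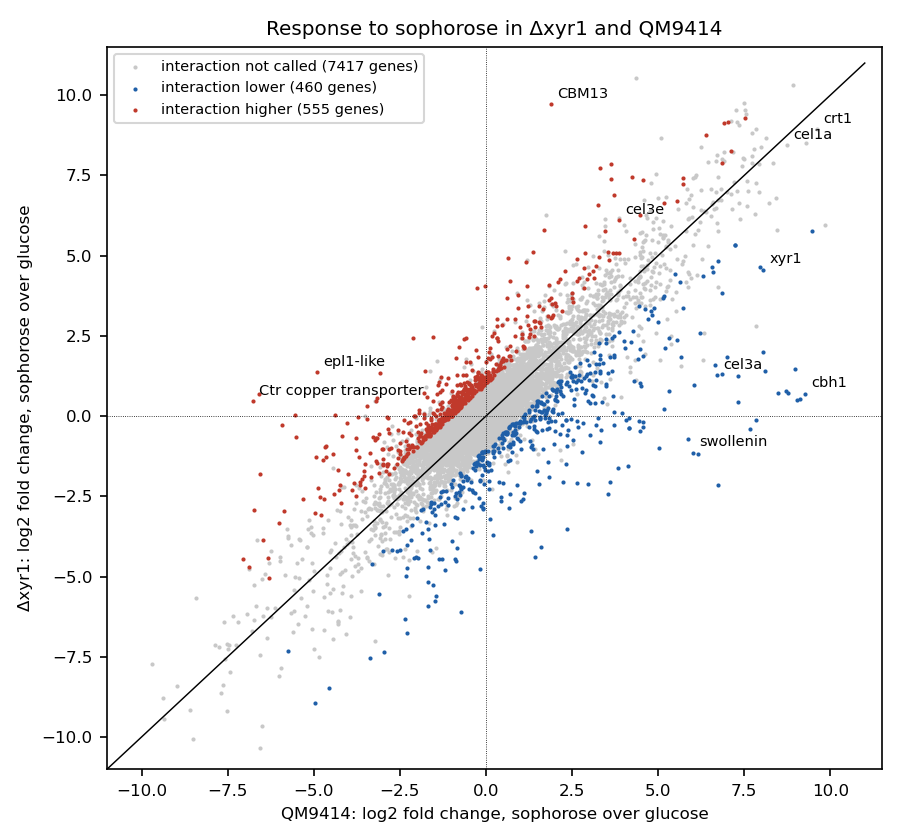
Log2 response to sophorose against glucose of each gene with counts in every group, in Δxyr1 (vertical axis) and in QM9414 (horizontal axis). Points on the diagonal responded alike, blue points (460) had a called lower interaction, red points (555) a called higher one and grey points (7417) none.

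Among the 1666 genes that rose in QM9414, the interaction was called lower for 261 (15.7%), higher for 79 (4.74%) and not called for 1326 (79.6%). The 261 fell into 85 genes that still rose in Δxyr1, 154 without a call there and 22 that fell. Among the 1635 genes that fell in QM9414, 241 (14.7%) had a higher interaction, 70 of which still fell in Δxyr1, 162 had no call there and 9 rose. Since the interaction is computed from the same QM9414 libraries, a shift of extreme responses toward the other strain is partly fixed by the arithmetic, and nothing is read from the direction of these shares. Among genes without a called response in QM9414, 147 had a lower interaction, 99 of which fell in Δxyr1, and 238 had a higher one, 107 of which rose in Δxyr1. The strain difference itself was called for 17.2% of all genes in sophorose and for 2.6% in glucose. Of the 466 lower genes, 304 (65.2%) were lower in Δxyr1 than in QM9414 sophorose, where 6.47% of all genes were, and 63 (13.5%) were higher in Δxyr1 glucose, where 1.88% of all genes were. Of the 558 higher genes, 365 (65.4%) were higher in Δxyr1 sophorose (10.8% of all genes) and 30 (5.38%) lower in Δxyr1 glucose (0.717% of all genes). The interaction is the strain effect in sophorose less that in glucose. These shares are therefore also partly fixed by the arithmetic, and nothing is read from their excess over all genes. These strain effects depend on scaling: 62.5% of the called genes in sophorose and 72.4% in glucose were higher in Δxyr1, against 22.3% and 5.89% with library totals alone, where the median gene shifted by −0.36 in sophorose and −0.60 in glucose.

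The cellulase genes that rose in QM9414 did not rise in Δxyr1. Of 9 cellobiohydrolase and endoglucanase genes, 7 had a lower interaction (77.8%), with a list median of −7.77 beside 0.06 over all genes with counts in every group. The count was 7 without Δxyr1 sophorose 3 and 7 without Δxyr1 glucose 1, but 6 without QM9414 glucose 1 and 5 without QM9414 glucose 3. Within QM9414 these 7 rose and the other 2 fell, where 19.6% of all genes rose and 19.2% fell. Within Δxyr1 none rose and 3 fell, where 19.4% of all genes rose and 16.6% fell. In sophorose, cbh1 (cel7a, ID 123989), whose cellobiohydrolase works from the reducing end of the cellulose chain, had 30.8, 57.9 and 0.720 CPM in Δxyr1 sophorose, against 14575, 14877 and 12359 CPM in QM9414 sophorose. Its interaction was −8.58 (SE 1.95, adjusted p = 0.00819), and it was not called without QM9414 glucose 1 or without QM9414 glucose 3. The other cellobiohydrolase gene, cbh2 (ID 72567), which acts from the non-reducing end, had 14.0, 20.5 and 0.288 CPM in Δxyr1 sophorose, against 6056, 5284 and 4808 CPM in QM9414 sophorose. The groups lay far apart in sophorose for both genes, while in glucose Δxyr1 and QM9414 overlapped. For cbh2 the interaction was −8.54 (SE 1.93, adjusted p = 0.00794). It did not pass when QM9414 glucose 3 was left out.

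Endoglucanases cut inside the chain. The gene egl5 (cel45a, ID 49976) had 0.275, 1.41 and 0.432 CPM in Δxyr1 sophorose, against 164, 173 and 145 CPM in QM9414 sophorose, and 2.50, 1.94 and 5.14 CPM in Δxyr1 glucose, against 1.90 and 1.21 CPM in QM9414 glucose. It rose 107-fold in QM9414 and fell in Δxyr1 by 2.14 on the log2 scale, which gave the lowest interaction of the list, −8.88 (SE 0.677, adjusted p = 8.69e-07). The gene egl1 (cel7b, ID 122081) had 4.06, 6.93 and 6.70 CPM in Δxyr1 sophorose, against 571, 618 and 507 CPM in QM9414 sophorose, and 2.56, 4.85 and 5.84 CPM in Δxyr1 glucose, against 3.43 and 3.62 CPM in QM9414 glucose. In Δxyr1 its sophorose and glucose libraries overlapped, and its interaction was −6.88 (SE 0.502, adjusted p = 5.74e-07). The further members with a lower interaction were cel12a (ID 123232, −8.07), cel5a (ID 120312, −7.77) and the xyloglucanase gene cel74a (ID 49081, −4.92). The membrane-bound endoglucanase gene cel5b (ID 82616) fell in both strains, with 123, 135 and 164 CPM in Δxyr1 sophorose, against 88.5, 89.7 and 93.8 CPM in QM9414 sophorose, and 549, 645 and 738 CPM in Δxyr1 glucose, against 516 and 628 CPM in QM9414 glucose. Its interaction of 0.46 was not called, with a 95% interval of −0.27 to 1.20. A GH12 endoglucanase gene (ID 77284) also fell in both, with an interaction of 0.61 (0.05 to 1.17). Summed over the list, the level was 428 ± 46.0 CPM in Δxyr1 sophorose and 21540 ± 2055 CPM in QM9414 sophorose (SD, n = 3 each), and 1189, 1379.6 and 1697 CPM in Δxyr1 glucose, against 1056 and 1196 CPM in QM9414 glucose. The sums did not overlap in sophorose, where the exact two-sided permutation test gave p = 0.1, the smallest it can give for 3 against 3 libraries. The Δxyr1 sum was made up mainly of cel5b and the GH12 gene.

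**Figure D2:**
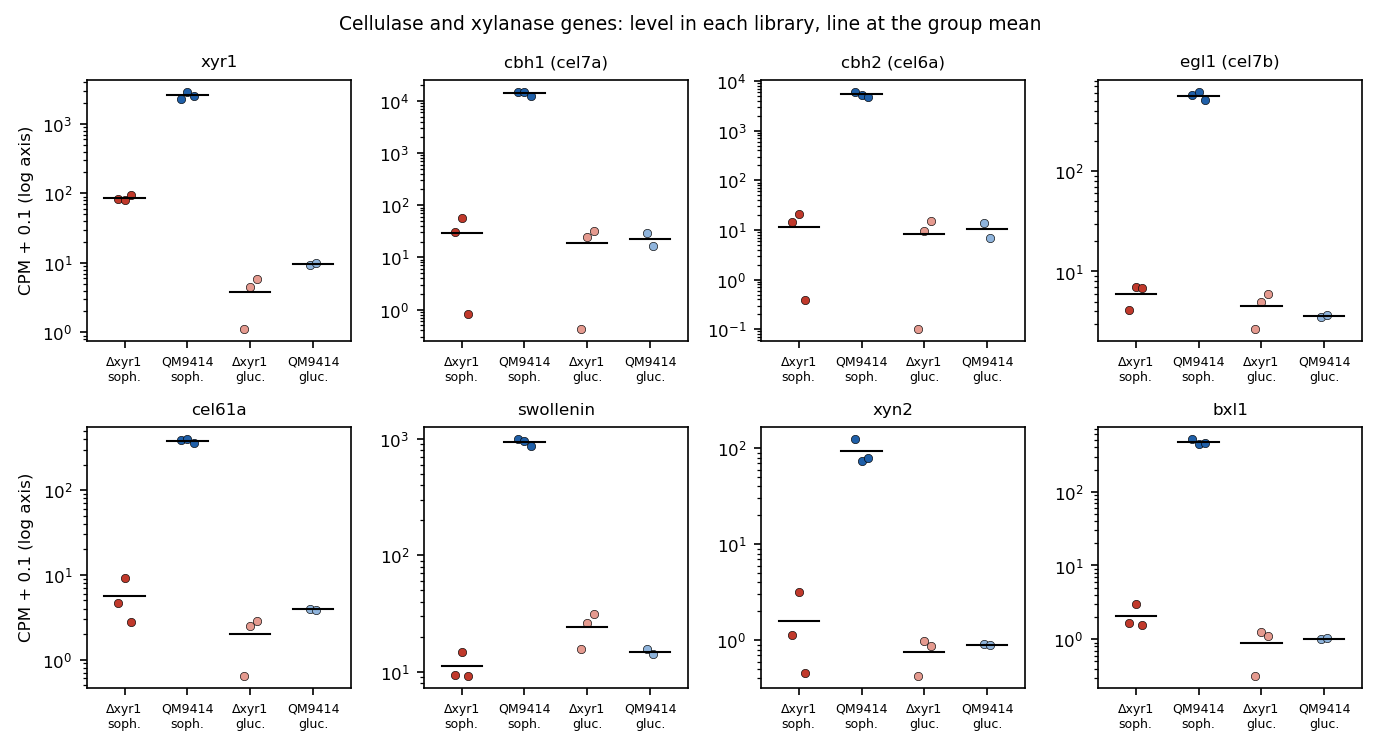
Level of xyr1, cbh1, cbh2, egl1, cel61a, swollenin, xyn2 and bxl1 in each library as CPM + 0.1 on a log axis, in Δxyr1 and QM9414 sophorose and then Δxyr1 and QM9414 glucose, with 1 point a library and a line at the group mean. In each panel the QM9414 sophorose libraries stand highest, for egl1 between 507 and 618 CPM, and the Δxyr1 sophorose libraries lie below them in every panel.

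Accessory proteins that open the cellulose surface had lower interactions too. Of 9 polysaccharide monooxygenases (copper enzymes that cleave cellulose by oxidation), swollenin and other proteins with a cellulose-binding module, 7 had a lower interaction (77.8%), with a median of −5.04. The monooxygenase gene cel61b (ID 120961) had 1.38, 2.82 and 0.288 CPM in Δxyr1 sophorose, against 385, 231 and 209.7 CPM in QM9414 sophorose, with an interaction of −8.09 (SE 1.29, adjusted p = 0.000811). Swollenin (ID 123992), which loosens cellulose without cutting it, had 9.22, 14.8 and 9.01 CPM in Δxyr1 sophorose, against 997, 955 and 876 CPM in QM9414 sophorose, and 15.5, 26.2 and 31.3 CPM in Δxyr1 glucose, against 15.5 and 14.0 CPM in QM9414 glucose. The strains did not overlap in sophorose. Swollenin fell in Δxyr1 (−1.14) and rose in QM9414 (6.00), with an interaction of −7.14 (SE 0.435, adjusted p = 1.11e-07). The gene cel61a (ID 73643) rose in both strains, to 4.54, 9.17 and 2.67 CPM in Δxyr1 sophorose, against 389.7, 399 and 358 CPM in QM9414 sophorose, and its interaction was −5.04 (SE 0.733, adjusted p = 0.000398). The genes cip1 (ID 73638, −7.91), encoding a cellulose-binding protein, and cip2 (ID 123940, −7.97), a CE15 esterase gene, were lower as well. Smaller values belonged to the AA9 genes with IDs 76065 (−1.62) and 22129 (−1.21), the second of which was not called on library totals alone. An AA9 gene (ID 27554, −0.90, interval −2.35 to 0.56) and the chitinase gene chi18-16 (ID 68347, −1.09, interval −2.23 to 0.06) were not called.

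Xylan-degrading enzymes gave 12 lower and no higher calls among 17 tested members (70.6%). The other members of the 19, xyn1 (ID 74223) and xyn5 (ID 112392), had at most 8 and 3 counts in any library and were not tested. The median interaction was −5.10 over the 14 members with counts in every group, and −5.16 with 3 more at their bounds. The count fell to 8 lower calls without QM9414 glucose 3, without Δxyr1 glucose 3, or with the 4 groups fitted alone. Backbone enzymes were among the lowest. The GH11 xylanase gene xyn2 (ID 123818) had 1.03, 3.08 and 0.360 CPM in Δxyr1 sophorose, against 124, 73.3 and 79.7 CPM in QM9414 sophorose, and 0.320, 0.872 and 0.768 CPM in Δxyr1 glucose, against 0.813 and 0.786 CPM in QM9414 glucose. Its Δxyr1 libraries in sophorose overlapped those in glucose of both strains, and its interaction was −5.53 (SE 0.923, adjusted p = 0.00118). The GH10 xylanase gene xyn3 (ID 120229, −5.16) and a GH30 xylanase gene (ID 69276, −6.57) were lower too, though xyn3 was not called without QM9414 glucose 3, without Δxyr1 glucose 3 or with the 4 groups alone.

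The β-xylosidase gene bxl1 (ID 121127), whose enzyme releases xylose from short chains, had 1.58, 2.95 and 1.44 CPM in Δxyr1 sophorose, against 516, 443 and 457 CPM in QM9414 sophorose, and 0.213, 1.16 and 0.998 CPM in Δxyr1 glucose, against 0.903 and 0.944 CPM in QM9414 glucose. It rose 2.77-fold in Δxyr1 and 505-fold in QM9414, with an interaction of −7.51 (SE 0.855, adjusted p = 4.51e-05). The side-chain gene glr1 (ID 72526), an α-glucuronidase gene, had 0.620, 1.03 and 0.216 CPM in Δxyr1 sophorose, against 150.3, 117 and 143 CPM in QM9414 sophorose, with an interaction of −8.59 (SE 1.09, adjusted p = 0.000116). The gene listed here as xyn4 (ID 111849, −4.53), annotated as GH59, and a GH30 endo-β-1,6-galactanase gene (ID 110894, −2.76) were also lower. Both were members of the list by ID, although these annotations do not name xylan. Several members were called on very few counts outside QM9414 sophorose. A GH43 gene (ID 3739) had 1.24, 0.962 and 0.865 CPM in Δxyr1 sophorose, against 39.3, 39.5 and 40.7 CPM in QM9414 sophorose, and 0 counts in both QM9414 glucose libraries. Set against a floor of 3 counts over that group, it was at least 401-fold higher in QM9414 sophorose than in QM9414 glucose, and its interaction was at most −5.54. The CE5 acetyl xylan esterase gene (ID 54219) and the GH3 β-xylosidase gene (ID 58450), also at 0 counts in QM9414 glucose, had bounds of at most −5.51 and −2.44. For abf2 (ID 76210), an arabinofuranosidase gene, the Δxyr1 sophorose libraries held 0, 0 and 3 counts, against 40, 22 and 21 counts in QM9414 sophorose. A CE16 gene (ID 121418) was called lower on 0.207, 0.257 and 0.0720 CPM in Δxyr1 sophorose, against 59.3, 36.4 and 40.8 CPM in QM9414 sophorose, but not with the 4 groups alone or without Δxyr1 glucose 2 or 3.

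The other xylan genes were not called. The arabinofuranosidase gene abf3 (ID 55319) had 360.3, 289 and 334 CPM in Δxyr1 sophorose, against 180.4, 243 and 213 CPM in QM9414 sophorose, and 9.43, 14.3 and 16.6 CPM in Δxyr1 glucose, against 5.51 and 5.82 CPM in QM9414 glucose. The Δxyr1 libraries were above the QM9414 libraries in both sugars, the gene rose in both strains, and its interaction of −0.61 was not called (−1.33 to 0.11). A GH115 glucuronidase gene (ID 79606, 0.43, interval −0.07 to 0.93) rose in both strains too. The other uncalled members were abf1 (ID 123283, −0.99, −1.86 to −0.11), a GH43 gene (ID 68064, 0.58, 0.14 to 1.01) and axe1 (ID 73632), whose acetyl xylan esterase transcript had 0.207, 0.770 and 0.144 CPM in Δxyr1 sophorose, against 53.5, 34.8 and 32.4 CPM in QM9414 sophorose, an adjusted p of 0.116 for the interaction, and a call under DESeq2.

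Most β-glucosidase genes rose in both strains. Of 11 members, 9 rose in Δxyr1 (81.8%, beside 19.4% of all genes) and 10 in QM9414 (90.9%, beside 19.6%). The list had 4 lower interactions (36.4%), 1 higher (9.09%) and a median of −0.21 over 10 members with counts in every group. The main secreted β-glucosidase gene, cel3a (bgl1, ID 76672), had 2.96, 3.53 and 3.60 CPM in Δxyr1 sophorose, against 178, 181 and 165 CPM in QM9414 sophorose, and 0.959, 1.84 and 1.54 CPM in Δxyr1 glucose, against 1.35 and 1.89 CPM in QM9414 glucose. It rose 2.41-fold in Δxyr1, against 105-fold in QM9414, with an interaction of −5.44 (SE 0.331, adjusted p = 1.11e-07). The GH3 genes cel3d (ID 46816, −2.05), cel3c (ID 82227, −1.44) and ID 104797 (−1.07) were lower by less, and none of these 3 was called on library totals alone. The gene cel3e (ID 76227) was the only higher member, with 747, 761 and 794 CPM in Δxyr1 sophorose, against 224, 226 and 246 CPM in QM9414 sophorose, and 10.9, 11.4 and 11.2 CPM in Δxyr1 glucose, against 16.6 and 15.6 CPM in QM9414 glucose. Every Δxyr1 library exceeded every QM9414 library in sophorose, and the interaction was 2.25 (SE 0.191, adjusted p = 2.88e-06).

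Intracellular β-glucosidases of family GH1, which are known to split and transglycosylate disaccharides and so take part in inducer formation, were not called. For cel1a (bgl2, ID 120749) the levels were 1985, 2034 and 2288 CPM in Δxyr1 sophorose, against 2921, 3897 and 3264 CPM in QM9414 sophorose, and 3.46, 7.66 and 7.14 CPM in Δxyr1 glucose, against 11.3 and 4.56 CPM in QM9414 glucose. It rose 348-fold in Δxyr1 and 429-fold in QM9414, and the interval of its interaction was −1.47 to 0.87, around −0.30. The values of cel1b (ID 22197) were 0.19 (−0.30 to 0.68), of cel3b (ID 121735) 0.09 (−0.79 to 0.97), of ID 47268 0.07 (−0.34 to 0.48) and of ID 66832 −0.13 (−0.79 to 0.53). The interval of cel1a still holds values past the fold threshold. A last member (ID 108671) had 4 counts in all of Δxyr1 sophorose, against 238 in QM9414 sophorose, and 0 counts in Δxyr1 glucose, so it got no fitted value. Summed levels were 7744, 5590.1 and 8089 CPM in Δxyr1 sophorose, against 7828, 9937 and 9012 CPM in QM9414 sophorose, and 104, 101 and 101 CPM in Δxyr1 glucose, against 148 and 122 CPM in QM9414 glucose.

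**Figure D3:**
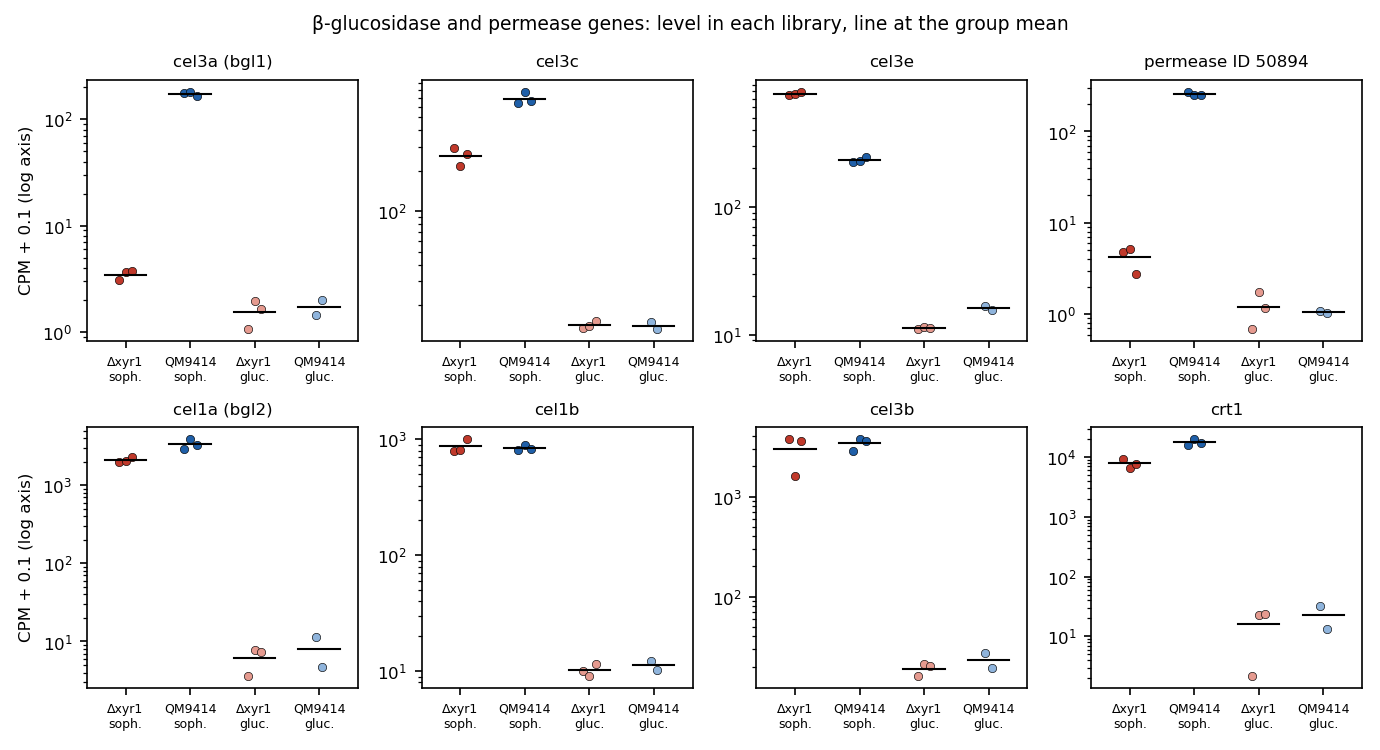
Level of the β-glucosidase genes cel3a, cel3c, cel3e, cel1a, cel1b and cel3b and of the permease genes ID 50894 and crt1 in each library as CPM + 0.1 on a log axis, grouped as Δxyr1 and QM9414 sophorose and then Δxyr1 and QM9414 glucose, with a line at the group mean. The strains part widely in sophorose for cel3a and ID 50894, Δxyr1 is the higher for cel3e, and cel1a, cel1b, cel3b and crt1 rise in both strains.

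Enzymes for mannan and the galactose, fucose and glucose side chains gave a smaller share of lower calls. Of 19 members, 6 had a lower interaction (31.6%), none a higher one, and the median was −0.86 over 17. Within Δxyr1 13 rose (68.4%, beside 19.4% of all genes), and within QM9414 15 rose (78.9%, beside 19.6%). The mannanase gene man1 (man5a, ID 56996) had 0.207, 0.642 and 0.144 CPM in Δxyr1 sophorose, against 10.7, 6.32 and 5.69 CPM in QM9414 sophorose, and its interaction was −4.96 (SE 1.40, adjusted p = 0.0242). The β-galactosidase gene bga1 (ID 80240) had 24.2, 19.9 and 30.8 CPM in Δxyr1 sophorose, against 218, 198 and 229 CPM in QM9414 sophorose, so that Δxyr1 stayed below QM9414 although it rose 2.14-fold, against 19.5-fold in QM9414, and its interaction was −3.19 (SE 0.254, adjusted p = 1.26e-06). An α-galactosidase gene (ID 55999, −3.30, with 4 counts in all in each glucose group) and the GH95 fucosidase genes with IDs 5807 (−2.35), 58802 (−2.13) and 111138 (−1.54) were lower as well, and ID 58802 fell in Δxyr1 (−2.03) rather than rising less. A GH31 α-xylosidase gene (ID 69944) had no counts in either glucose group, and in sophorose it had 0, 0.192 and 0.216 CPM in Δxyr1 sophorose, against 15.5, 13.2 and 15.2 CPM in QM9414 sophorose. An α-galactosidase gene (ID 65986), also without counts in glucose, had 24.0, 17.2 and 12.3 CPM in Δxyr1 sophorose, against 8.32, 9.13 and 9.22 CPM in QM9414 sophorose. These genes lay on opposite sides in sophorose, and no fold against glucose was computed. The count of lower calls was 3 with library totals alone, without QM9414 glucose 1 or without Δxyr1 glucose 3. Over 20 alternatives the call was lost in 10 for ID 5807, in 7 for ID 55999 and in 4 for man1. The other members ranged between −1.26 (ID 72632) and 1.44 (ID 27219) without a call.

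Sugar permeases named by the study, many of them from these same libraries and others from earlier work, mostly rose in both strains. Of 19 members, 13 rose in Δxyr1 (68.4%, beside 19.4% of all genes) and 16 in QM9414 (84.2%, beside 19.6%). A lower interaction was called for 2 (10.5%) beside 5.48% of all genes. Since much of the list was chosen on these samples, its responses are not independent evidence. The permease gene with ID 50894 had 4.68, 5.07 and 2.67 CPM in Δxyr1 sophorose, against 271, 249 and 253 CPM in QM9414 sophorose, and 0.586, 1.65 and 1.08 CPM in Δxyr1 glucose, against 0.993 and 0.944 CPM in QM9414 glucose. Its Δxyr1 libraries stayed below those of QM9414 in sophorose, although it rose in both strains, and its interaction was −6.05 (SE 0.482, adjusted p = 1.26e-06). For crt1 (ID 3405), a transporter needed in this fungus for cellulase induction, the levels were 9303, 6691 and 7632 CPM in Δxyr1 sophorose, against 16043, 20095 and 17408 CPM in QM9414 sophorose, and 2.03, 22.7 and 23.3 CPM in Δxyr1 glucose, against 32.6 and 13.3 CPM in QM9414 glucose. It rose 494-fold in Δxyr1 and 781-fold in QM9414, and its interaction of −0.66 was not called (adjusted p = 0.648, interval −2.61 to 1.29). The other called permease gene was ID 54632 (−1.35). A permease gene linked to cellulose signalling (ID 79202) had 4759, 4428 and 3854 CPM in Δxyr1 sophorose, against 1747, 2326 and 1989 CPM in QM9414 sophorose, a higher value that did not pass (1.11, adjusted p = 0.11). The permease gene with ID 56289 had 97.8, 103 and 51.9 CPM in Δxyr1 sophorose, against 2.20, 1.28 and 1.20 CPM in QM9414 sophorose, a 54.7-fold difference in sophorose, while each glucose group held 2 counts in all. Its interaction did not pass (adjusted p = 0.089), but was called by DESeq2 and without Δxyr1 sophorose 3. The gene with ID 69957 lay on the other side, with 0.138, 0.321 and 0.0720 CPM in Δxyr1 sophorose, against 7.22, 5.49 and 4.97 CPM in QM9414 sophorose, 2 counts in all in each glucose group, and an adjusted p of 0.134. A xylose transporter gene (ID 104072) had 48.9, 47.2 and 30.5 CPM in Δxyr1 sophorose, against 20.3, 14.4 and 15.7 CPM in QM9414 sophorose, and at most 3 counts in all in either glucose group, without a call. The glucose permease gene hxt1 (ID 22912, −0.92, −2.23 to 0.40) was not called.

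Other regulators of cellulase genes showed no called interaction. Of 12 measured members, xyr1 itself was the only call. The activator gene ace3 (ID 77513) had 521, 451 and 451 CPM in Δxyr1 sophorose, against 725, 838 and 729.9 CPM in QM9414 sophorose, and 38.3, 37.4 and 39.2 CPM in Δxyr1 glucose, against 35.9 and 35.8 CPM in QM9414 glucose. It rose in both strains, with an interaction of −0.78 (SE 0.177, adjusted p = 0.00793), under the fold threshold. The repressor gene ace1 (ID 75418, −0.61, −1.22 to −0.000620) and the carbon catabolite repressor gene cre1 (ID 120117, 0.47, −0.18 to 1.12) were not called. A further 7 members lay between −0.36 (hap2, ID 124286) and 0.37 (ID 122879, a helix-loop-helix regulator).

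The highest called interactions of any of the 20 gene lists were those of copper and iron uptake genes. Fungi take up copper through Ctr transporters, and ferric reductases at the plasma membrane reduce copper and iron before uptake. Of 29 members, 9 had a higher interaction (31%) and 2 a lower one (6.9%), with a median of 0.56. Within QM9414 15 fell in sophorose (51.7%, beside 19.2% of all genes), and within Δxyr1 8 fell (27.6%, beside 16.6%). Part of this list was named by the study from these libraries. The copper transporter gene with ID 52315 had 2394, 2656 and 1414 CPM in Δxyr1 sophorose, against 3.22, 4.28 and 2.57 CPM in QM9414 sophorose, and 817, 1912 and 1928 CPM in Δxyr1 glucose, against 399.8 and 339 CPM in QM9414 glucose. QM9414 in sophorose was below all other libraries, and the gene fell there by 6.78 on the log2 scale, while in Δxyr1 its value was 0.47 without a call, for an interaction of 7.25 (SE 1.50, adjusted p = 0.00481). The ferric reductase gene with ID 23353 had 800, 621 and 501 CPM in Δxyr1 sophorose, against 1.02, 1.02 and 1.08 CPM in QM9414 sophorose, and 455, 371 and 355 CPM in Δxyr1 glucose, against 124 and 78.4 CPM in QM9414 glucose. It followed the same order of groups, with an interaction of 7.29 (SE 1.01, adjusted p = 0.00025). A second copper transporter gene (ID 62716) had 1084, 1259.9 and 912 CPM in Δxyr1 sophorose, against 4.95, 3.58 and 3.17 CPM in QM9414 sophorose, and 729, 1128 and 1340 CPM in Δxyr1 glucose, against 222 and 142 CPM in QM9414 glucose. Its interaction was 5.58 (SE 1.21, adjusted p = 0.00637), and in glucose too the Δxyr1 libraries were the higher.

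Further copper transporter genes with a higher interaction were ID 108749 with 4.40 (SE 0.410, adjusted p = 7.78e-06), ID 71029 with 2.13 (SE 0.341, adjusted p = 0.000841) and the weakly transcribed ID 69426 (2.30, at most 2.31 CPM), which did not pass without QM9414 glucose 1. The ferric reductase gene with ID 81096 had 717, 537 and 373 CPM in Δxyr1 sophorose, against 30.0, 23.7 and 36.6 CPM in QM9414 sophorose, and 851, 793 and 883 CPM in Δxyr1 glucose, against 539 and 555 CPM in QM9414 glucose, with an interaction of 3.55 (SE 0.450, adjusted p = 0.000116). The iron transporter gene with ID 38812 had 986, 961 and 659.9 CPM in Δxyr1 sophorose, against 181, 161 and 152 CPM in QM9414 sophorose. Unlike the copper transporter genes it rose in both strains, 17.1-fold in Δxyr1 and 3.53-fold in QM9414, with an interaction of 2.27 (SE 0.260, adjusted p = 4.51e-05). A siderophore transporter gene (ID 82017, 2.09) was higher as well. The other ferric reductase genes that were called went down. The gene with ID 22845 had 34.8, 41.1 and 60.9 CPM in Δxyr1 sophorose, against 91.7, 98.6 and 89.0 CPM in QM9414 sophorose, with an interaction of −1.25 (SE 0.308, adjusted p = 0.0124). The gene with ID 106936 had 0 counts in all Δxyr1 sophorose libraries, against 26, 19 and 24 counts in QM9414 sophorose, so that its interaction was at most −5.23. Zinc transporter genes of the ZIP family, IDs 47987 (−1.11, −2.63 to 0.40) and 107479 (−0.90, −2.23 to 0.43), fell in both strains without a called interaction. Summed over the list, levels were 7878, 7828 and 5479 CPM in Δxyr1 sophorose, against 1125, 1067 and 1031 CPM in QM9414 sophorose, and 4706, 6376 and 6715 CPM in Δxyr1 glucose, against 2521 and 2495 CPM in QM9414 glucose. Higher calls numbered between 8 and 10 under all alternatives tried.

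**Figure D4:**
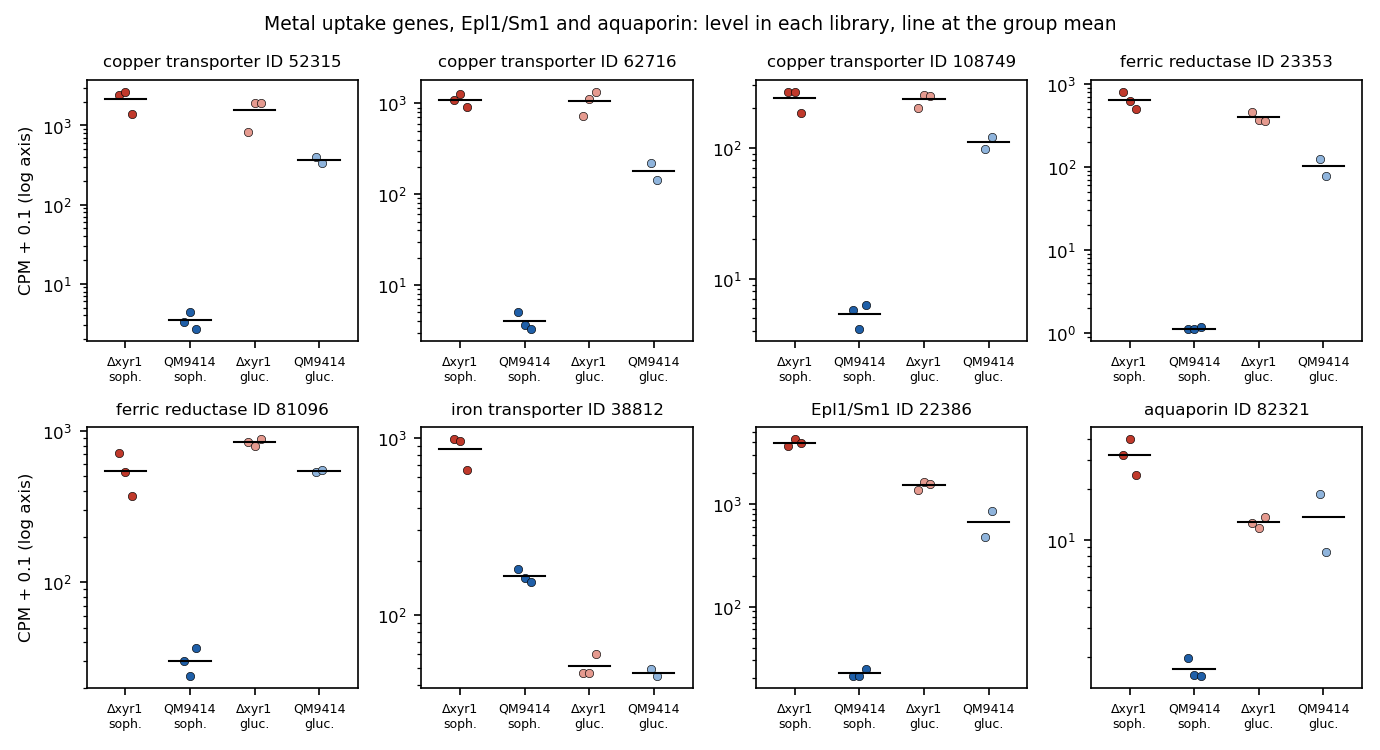
Level of the copper transporter genes ID 52315, ID 62716 and ID 108749, the ferric reductase genes ID 23353 and ID 81096, the iron transporter gene ID 38812, the Epl1/Sm1 gene ID 22386 and the aquaporin gene ID 82321 in each library as CPM + 0.1 on a log axis, grouped as Δxyr1 and QM9414 sophorose and then Δxyr1 and QM9414 glucose, with a line at the group mean. The QM9414 sophorose libraries are the lowest of each panel except for ID 38812, where both glucose groups are lower.

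Secreted and cell-surface proteins were found at both ends of the interaction. A gene of the Epl1/Sm1 family (ID 22386), small secreted cerato-platanins known in Trichoderma as elicitors of plant defence, had 3669, 4293 and 3924 CPM in Δxyr1 sophorose, against 20.8, 21.2 and 24.8 CPM in QM9414 sophorose, and 1378, 1649.7 and 1559 CPM in Δxyr1 glucose, against 476 and 865 CPM in QM9414 glucose. It rose in Δxyr1 (1.37) and fell in QM9414 (−4.91), with an interaction of 6.28 (SE 0.611, adjusted p = 9.79e-06). A second gene of the family (ID 111442) went the other way, with 1.03, 2.05 and 1.30 CPM in Δxyr1 sophorose, against 12.2, 18.6 and 15.5 CPM in QM9414 sophorose, falling in both strains and more in Δxyr1, for an interaction of −4.40 (SE 1.01, adjusted p = 0.0084). The orthologue of QI74 (ID 74282), named for a cysteine-rich protein of the Trichoderma harzianum cell wall, was abundant, with 7057, 10564 and 12163 CPM in Δxyr1 sophorose, against 539, 518 and 703 CPM in QM9414 sophorose, and 564, 732 and 587 CPM in Δxyr1 glucose, against 767 and 624 CPM in QM9414 glucose. It rose 15.8-fold in Δxyr1 and was not called in QM9414, for an interaction of 4.23 (SE 0.411, adjusted p = 9.79e-06). A gene with a family 13 carbohydrate-binding module (CBM13, ID 111094) had 25.6, 33.6 and 23.2 CPM in Δxyr1 sophorose, against 0.314, 0.447 and 0.419 CPM in QM9414 sophorose. In glucose it held 0, 1 and 0 counts in Δxyr1 and 2 and 1 in QM9414. It was 67.5-fold higher in Δxyr1 than in QM9414 sophorose, and its interaction was called higher (adjusted p = 0.00201), except without QM9414 glucose 1, but the size of the fitted value rests on these few glucose counts and is not given.

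Other high values came from genes without an annotated function, IDs 107641 (5.62), 111750 (4.86) and 107674 (4.56), and from a small secreted cysteine-rich protein gene (ID 123086, 4.76), whose call was lost in 3 of the fits that left out a library. A cation-transporting ATPase gene (ID 81536) had 677, 800.3 and 867 CPM in Δxyr1 sophorose, against 48.4, 39.5 and 46.9 CPM in QM9414 sophorose, and rose in both strains with an interaction of 4.09 (SE 0.278, adjusted p = 2.69e-07). A GH76 mannanase gene (ID 122495) had 354, 274 and 166 CPM in Δxyr1 sophorose, against 21.4, 13.0 and 13.2 CPM in QM9414 sophorose, with an interaction of 4.43 (SE 0.700, adjusted p = 0.000758). Low values outside the cellulases belonged to a GH109 gene (ID 56840), which had 0.551, 0.642 and 0.360 CPM in Δxyr1 sophorose, against 114, 112 and 104 CPM in QM9414 sophorose, and 0.693, 1.16 and 1.84 CPM in Δxyr1 glucose, against 1.44 and 1.57 CPM in QM9414 glucose. It fell in Δxyr1 (−1.18) and rose in QM9414 (6.17), for an interaction of −7.35 (SE 0.452, adjusted p = 1.11e-07). A zinc-binding oxidoreductase gene (ID 21876, −5.97), a P450 monooxygenase gene (ID 65141, −5.46) and a CE9 gene (ID 79671, −5.67) were low too.

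In all, 31 genes were called in opposite directions in the strains, 22 that fell in Δxyr1 and rose in QM9414 and 9 that rose in Δxyr1 and fell in QM9414, and the interaction was called for each of the 31. The aquaporin gene (ID 82321), encoding a membrane channel for water, was among the 9. It had 31.8, 39.6 and 24.4 CPM in Δxyr1 sophorose, against 1.88, 1.47 and 1.44 CPM in QM9414 sophorose, and 12.5, 11.6 and 13.6 CPM in Δxyr1 glucose, against 18.7 and 8.34 CPM in QM9414 glucose. The Δxyr1 sophorose libraries were the highest and the QM9414 sophorose libraries the lowest, with an interaction of 4.41 (SE 0.424, adjusted p = 9.16e-06). The aquaglyceroporin gene (ID 81082) rose in both strains, and its value of 0.41 had an interval of −2.41 to 3.24. The list of 10 transporters that the study named beside the permeases gave 1 higher call (10%), the aquaporin, and 4 lower calls (40%). The shares over all genes tested were 6.56% and 5.48%. These transporters were named by the study from this same series, so their calls are not independent evidence. The lower genes were an AAA ATPase gene (ID 58366, −4.61), an amino acid/polyamine transporter gene (ID 121486, −4.47), a urea transporter gene (ID 56911, −3.56) and a phosphate transporter gene (ID 60988, −1.68). The amino acid/polyamine transporter gene had 2.41, 2.76 and 3.24 CPM in Δxyr1 sophorose, against 52.3, 63.0 and 47.4 CPM in QM9414 sophorose, and 255, 333 and 331 CPM in Δxyr1 glucose, against 276 and 257 CPM in QM9414 glucose. It fell in both strains and further in Δxyr1.

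Ribosomal protein genes were a broad group with small differences. Of 139 members, 41 had a higher interaction (29.5%) beside 6.56% of all genes, and 1 a lower one, annotated as L29 (ID 103060, −2.39). The list median was 0.745, beside 0.0567 over all genes. In sophorose 15 fell within Δxyr1 (10.8%, beside 16.6% of all genes), against 49 within QM9414 (35.3%, beside 19.2%). Summed levels were 54522, 52610 and 34724 CPM in Δxyr1 sophorose, against 20290, 24280 and 21456 CPM in QM9414 sophorose, and 34776, 42660 and 47493 CPM in Δxyr1 glucose, against 38417 and 33459 CPM in QM9414 glucose. The sums did not overlap in sophorose, with Δxyr1 sophorose 3 the lowest of its group. With library totals alone they did overlap, at 62762, 53705 and 18335 CPM in Δxyr1 sophorose, against 24810, 28523 and 24769 CPM in QM9414 sophorose, where Δxyr1 sophorose 3 lay below every QM9414 library (exact two-sided permutation p = 0.4). Examples were rla1 (ID 123850, 1.54), an acidic protein gene of the ribosomal stalk, and rpl44 (ID 79106). The gene rpl44 had 931, 1115 and 508 CPM in Δxyr1 sophorose, against 264, 303 and 267 CPM in QM9414 sophorose, and 376, 748 and 777 CPM in Δxyr1 glucose, against 595 and 579 CPM in QM9414 glucose. In Δxyr1 sophorose it lay above every QM9414 sophorose library, and its interaction was 1.51 (SE 0.416, adjusted p = 0.0216). The number of higher calls depended on the normalization and on single libraries: it was 9 with library totals alone, 23 without QM9414 glucose 1, 24 without Δxyr1 sophorose 2 and 52 without Δxyr1 sophorose 3. The median above that of all genes lay at 0.743 with library totals alone and at 0.58 without QM9414 glucose 1.

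In the remaining lists calls went in both directions, apart from pentose and central carbon enzymes. Those lists had only 2 and 1 calls, all lower, and no direction is read from so few. Among 54 amino acid and peptide transporters 3 were higher and 11 lower (20.4% lower), including a peptide transporter gene (ID 80086, −3.60), while another (ID 80879, −3.89) lost its call in every fit that left out 1 library. The list gave 5 higher and 6 lower calls without Δxyr1 glucose 3, and 1 and 6 with library totals alone. The 158 proteases gave 4 higher and 15 lower calls, but 3 and 4 with library totals alone, beside 6.56% and 5.48% of all genes, with a neutral zinc metallopeptidase gene (ID 110220, −2.50) and a methionine aminopeptidase gene (ID 3049, 2.73) as examples. Of 8 enzymes of pentose and galactose catabolism, 2 were lower, the xylose reductase gene xyl1 (ID 107776) and a xylulokinase gene (ID 123288, −1.84). For xyl1 the levels were 59.3, 57.9 and 73.0 CPM in Δxyr1 sophorose, against 237, 286 and 234 CPM in QM9414 sophorose, and 17.3, 33.0 and 25.4 CPM in Δxyr1 glucose, against 13.5 and 29.6 CPM in QM9414 glucose. It rose 2.52-fold in Δxyr1 and 11.6-fold in QM9414, with an interaction of −2.20 (SE 0.369, adjusted p = 0.0012).

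Among 20 chaperones and folding enzymes of the secretory pathway 1 was higher (5%) and 2 were lower (10%), with calnexin (ID 73678) at −1.05. Among 47 enzymes of central carbon metabolism none was higher and 1 lower (2.13%), a succinate-CoA ligase gene (ID 2223, −1.32). The shares over all genes tested were 6.56% and 5.48%. Over 20 alternatives calnexin lost its call in 4 and the ligase gene in 5, and with library totals alone neither list held a call. The 185 transporters of the major facilitator superfamily gave 27 higher and 13 lower calls, beside 6.56% and 5.48% of all genes, among the lower a sugar transporter gene (ID 44175, −4.54). The balance of the MFS calls turned under some alternatives, with 16 higher and 20 lower calls without Δxyr1 glucose 1, 8 and 12 without QM9414 glucose 1, and 6 and 11 with library totals alone. Cytochrome P450 genes gave 4 higher (6.9%) and 6 lower (10.3%) of 58. Zinc cluster regulators gave 17 higher (7.42%) and 10 lower (4.37%) of 229, close to the shares over all genes. Enzymes of the fungal cell wall gave 2 higher (3.08%) and 7 lower (10.8%) of 65. With library totals alone these lists gave, in this order, 2 and 3, 6 and 3, and 2 and 3. Hydrophobin and conidiation genes, used here as markers of asexual development, gave 1 higher (4%) and 2 lower (8%) calls of 25. These were HFB4 (ID 106538) at 3.31, not called without QM9414 glucose 3, and hydrophobin genes with IDs 59703 at −3.91 and 120189 at −1.61. The list sums were 22932, 27692 and 18530 CPM in Δxyr1 sophorose, against 12130, 11044 and 10134 CPM in QM9414 sophorose. In glucose they were 2856, 3651 and 3529 CPM in Δxyr1, against 3223 and 3604 CPM in QM9414. With library totals alone the sums in sophorose overlapped, at 26398, 28268 and 9784 CPM in Δxyr1 sophorose, against 14832, 12974 and 11699 CPM in QM9414 sophorose (exact two-sided permutation p = 0.4). The part of this difference in the results above was not tested.

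**Figure D5:**
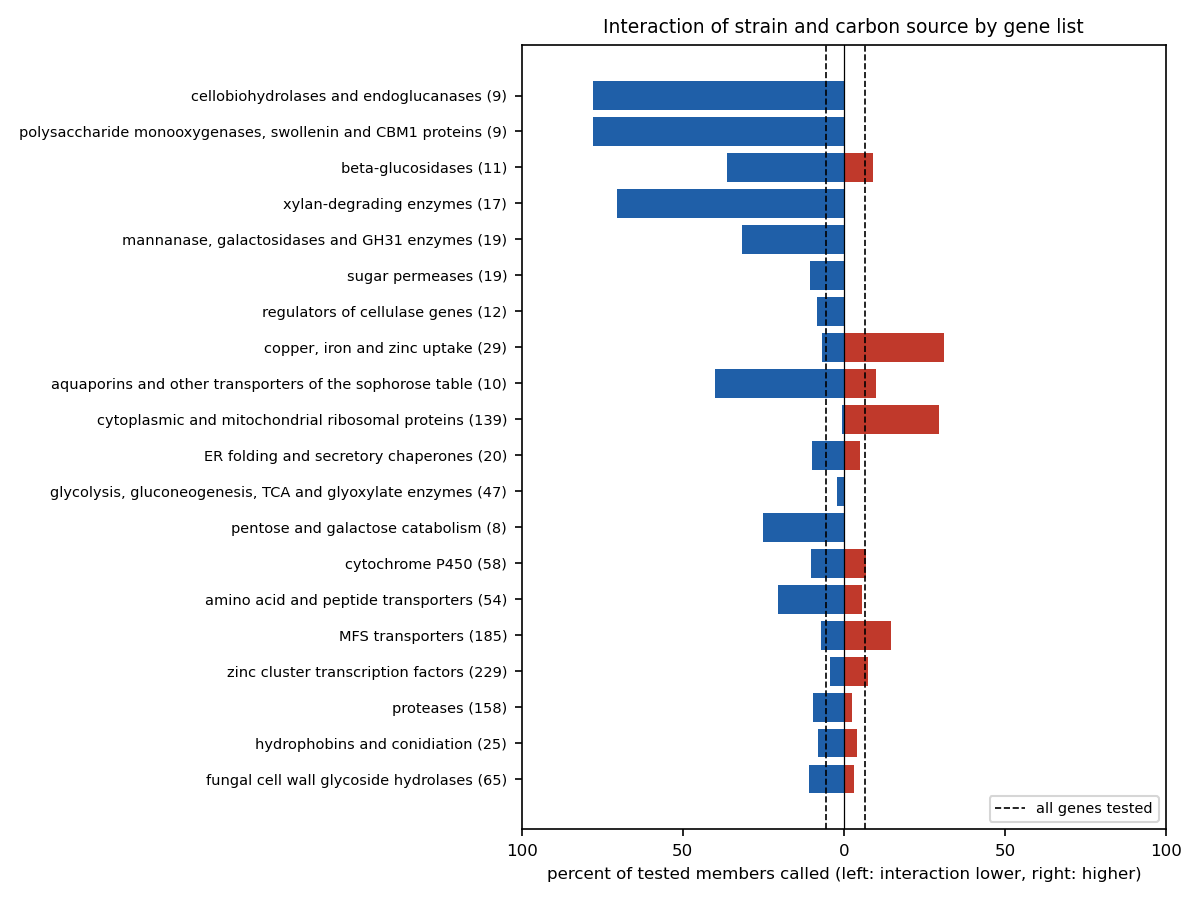
Share of the tested members of each of the 20 gene lists with a called lower interaction (blue, to the left) or higher interaction (red, to the right), in percent, with dashed lines at the shares over all genes tested, 5.48% and 6.56%. Cellulases, accessory proteins and xylan enzymes have the longest bars on the left, and metal uptake and ribosomal proteins on the right.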

How the data were processed

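RNA-seq reads of T. reesei mycelia were aligned and counted per gene by the authors with TopHat2 2.0.4, SAMtools 0.1.19 and HTSeq 0.6.0, per the submitters' processing notes. The methods of the study give another SAMtools version. The authors deposited raw read counts for 9129 genes, which were used here. Their normalized counts and 6 columns of fold changes and p-values were not used. Gene names came from the deposited descriptions and RefSeq (9072 IDs matched a locus tag, 226 with a symbol).

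Counts of all 17 libraries were fitted together as 6 groups with edgeR 4.0.16 (limma 3.58.1, R 4.3.3; TMM scaling, quasi-likelihood test). Genes that reached 10 counts in 2 or more libraries were kept (8506), and p-values were Benjamini-Hochberg adjusted over all of them. Calls needed an adjusted p of at most 0.05 and a log2 value of at least 1 in size. The common biological coefficient of variation was 0.205. Genes with a group at 0 counts got no fitted value but a bound at a floor of 3 counts over the group.

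Named were xyr1, the members of 9 lists given by ID, up to 4 called genes of each list by description, the 10 lowest and 10 highest interactions among called genes at 10 CPM or more in at least 1 group mean whose strains did not overlap in sophorose, and the 5 largest of each response class. The values of 1 regulator gene are not reported here. Members and lists were chosen with earlier results of these data known. Alternatives were RLE and upper-quartile factors, library totals alone, no and a stricter filter (1 CPM in 3 libraries), the 4 groups alone, a replicate block, leaving out each library, DESeq2 1.42.0 and adjusted p alone. No 2 libraries of a group agreed within counting noise, and each was treated as 1 replicate. This comparison cannot show that the libraries came from independent cultures.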

Additional observations from a re-analysis of the deposited data

Results flagged for a closer look

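For 12 named genes with counts in every group, the sophorose response was called in opposite directions in the strains and the interaction, which tests that difference, was called too. The genes that fell in Δxyr1 and rose in QM9414 were egl5 (ID 49976) with an interaction of −8.88, the GH109 gene (ID 56840) with −7.35, swollenin (ID 123992) with −7.14, the zinc-binding oxidoreductase gene (ID 21876) with −5.97, the P450 gene (ID 65141) with −5.46 and an MFS permease gene (ID 65114) with −3.92. The genes that rose in Δxyr1 and fell in QM9414 were the Epl1/Sm1 gene (ID 22386) with 6.28, a gene without an annotated function (ID 107674) with 4.56, the aquaporin gene (ID 82321) with 4.41, a putative dihydrodipicolinate synthase gene (ID 65882) with 4.00, a gene with an F-box and WD repeats (ID 69537) with 3.18 and the copper transporter gene ID 69426 with 2.30.

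The oxidoreductase gene (ID 21876) had 12.1, 16.5 and 77.6 CPM in Δxyr1 sophorose, against 497, 544 and 410.2 CPM in QM9414 sophorose, and 65.6, 185 and 319 CPM in Δxyr1 glucose, against 34.0 and 48.4 CPM in QM9414 glucose. Its libraries spread widely within both Δxyr1 groups. The permease gene (ID 65114) had 0.826, 0.577 and 1.73 CPM in Δxyr1 sophorose, against 7.07, 11.2 and 8.80 CPM in QM9414 sophorose, and 2.45, 1.74 and 2.53 CPM in Δxyr1 glucose, against 0.813 and 1.68 CPM in QM9414 glucose. The synthase gene (ID 65882) had 35.9, 38.8 and 26.4 CPM in Δxyr1 sophorose, against 3.69, 5.81 and 5.15 CPM in QM9414 sophorose, and 5.33, 6.69 and 6.53 CPM in Δxyr1 glucose, against 11.7 and 16.8 CPM in QM9414 glucose. With 2 or 3 libraries a group, no library was tested as a single extreme value.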

How the results depend on the processing

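Among 199 named genes with a fitted interaction, 121 were called, and none of the called values changed sign under the alternatives. The call held for 81 of them under every alternative and was lost for 40 under at least 1, while 22 uncalled genes passed under at least 1. With library totals alone the interaction gave 449 calls (228 higher, 221 lower) in place of 1024, the strain effect in glucose 1036 in place of 221 (61 higher, 975 lower, against 160 and 61), and the strain effect in sophorose split into 410 higher and 1428 lower, against 916 and 550. Of the called genes in the Δxyr1 response, 69.7% then rose, against 53.9%. The classes then held 144 genes up in QM9414 with a lower interaction (261), 101 of those not up in Δxyr1 (176) and 115 down in QM9414 with a higher one (241). The median of all genes shifted to 0.251 for the interaction. The log2 ratio of the sums in sophorose was −6.07 for cellulases (−5.65), −4.03 for accessory proteins (−3.63) and −1.82 for xylan enzymes (−1.42). Without the fold threshold there were 1560 interaction calls, 5313 in the Δxyr1 response, 5247 in the QM9414 response, 3906 and 566 for the strain in sophorose and glucose, and the classes up and down in QM9414 held 398 and 556. Leaving out 1 library gave between 695 (without QM9414 glucose 1) and 1391 (without Δxyr1 sophorose 3) interaction calls, and between 44 (without QM9414 glucose 1) and 451 (without Δxyr1 glucose 1) for the strain in glucose, with 95 without Δxyr1 glucose 3. The class down in QM9414 with a higher interaction held between 147 genes (without Δxyr1 sophorose 2) and 273 (without Δxyr1 sophorose 3). DESeq2 gave 1083 interaction calls (523 higher, 560 lower), the 4 groups alone 865, RLE 969, upper-quartile factors 1040, no filter 1018 and the stricter filter 1007. A fit without the genes ID 48266 and ID 61593, chosen after seeing the data, gave 1004. The cause of these shifts was not tested.

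Deviations of same-numbered libraries from their group means correlated between −0.202 and 0.328 (over 0.1 in 8 of 15 pairs), and those of different numbers between −0.455 and 0.366 (over 0.1 in 3 of 30). Centring on such small groups partly fixes these correlations by arithmetic. The main fit did not treat the libraries as paired, and whether same-numbered libraries were prepared together was not tested. With a replicate block the interaction gave 1040 calls, 971 of them shared with the fit without it. Depth limits the genes near 0 in Δxyr1 or in glucose, whose fold changes rest on few counts, and 74 tested genes had a group without counts. QM9414 glucose rests on 2 libraries.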

Other observations

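The lists below were chosen after their values had been seen and carry no test as lists. Of 11 superoxide dismutase and catalase genes, enzymes that remove reactive oxygen, 4 had a higher interaction (36.4%) and none a lower one. Of the 11, 5 fell in Δxyr1, where 16.6% of all genes fell, against 7 in QM9414, where 19.2% did. The manganese superoxide dismutase gene (ID 66345) had between 268.9 and 403 CPM in Δxyr1 sophorose, against 8.40 to 9.71 CPM in QM9414 sophorose, and between 552 and 814 CPM in Δxyr1 glucose, against 218 and 249 CPM in QM9414 glucose. Its interaction was 3.69 (SE 0.729, adjusted p = 0.00357). A catalase gene (ID 120371) had 8.79 to 17.1 CPM in Δxyr1 sophorose, against 0.575 to 0.785 CPM in QM9414 sophorose, with an interaction of 2.63 (SE 0.457, adjusted p = 0.00151). The Cu/Zn superoxide dismutase genes with IDs 110471 and 123029 had interactions of 1.65 and 1.48. In the 4 genes the Δxyr1 libraries lay above the QM9414 libraries in sophorose.

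Of 11 polyketide synthase genes, whose enzymes build secondary metabolites, 4 had a lower interaction (36.4%) and none a higher one. The lowest, ID 81964, had 0.449 to 2.45 CPM in Δxyr1 sophorose, against 6.12 to 8.82 CPM in QM9414 sophorose, and 3.30 to 7.08 CPM in Δxyr1 glucose, against 0.993 and 2.10 CPM in QM9414 glucose, with an interaction of −4.30 (SE 0.709, adjusted p = 0.00106). Of 11 non-ribosomal peptide synthetase genes, 2 were lower. The siderophore synthase gene (ID 69946) had 113 to 297 CPM in Δxyr1 sophorose, against 454 to 606 CPM in QM9414 sophorose, and an interaction of −1.75 (SE 0.469, adjusted p = 0.0186). Among 95 small secreted cysteine-rich protein genes 13 were higher (13.7%) and 5 lower. Among 60 genes annotated with respiratory chain or ATP synthase terms 6 were higher (10%) and none lower. Of the 60, 11 fell in Δxyr1, against 29 in QM9414, while 16.6% of all genes fell in Δxyr1 and 19.2% in QM9414. The higher ones included a vacuolar ATP synthase gene (ID 2476). Among 54 genes annotated as translation or elongation factors 4 were higher (7.41%) and none lower. Those 4 included a transcription elongation factor gene (ID 72521). Over all genes tested, 6.56% were higher and 5.48% lower.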
